A study of Mus musculus with 16 samples.

Results

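RUNX and SOX proteins are transcription factors that are active in the embryo and are switched on again in many injured tissues. Transcripts of 7 such genes were followed in the left ventricle of mice with and without pyruvate kinase M2 (PKM2), the isoform of the glycolytic enzyme that is common in fetal and proliferating cells. The genes were *Runx1*, *Runx2* and *Runx3*, their shared partner *Cbfb*, and *Sox4*, *Sox9* and *Sox11*. They were chosen by name, with earlier results of these data known. Each had 1 row among the 55492 genes of the table of normalized counts. The 16 libraries came from 16 male C57BL/6 mice, 8 to 12 weeks old. PKM2fl/fl mice carry loxP-flanked *Pkm* alleles without Cre and served as controls. PKM2-/- mice lack exon 10 of *Pkm* in all cells, through an earlier germline deletion with CMV-Cre that was then bred out, so a difference between genotypes cannot be assigned to one cell type of the heart. Hearts were taken from unoperated mice at baseline (n = 2 per genotype), 3 days after sham surgery (n = 3 per genotype) or 3 days after myocardial infarction (MI) by permanent ligation of the left anterior descending artery (n = 3 per genotype). Sham mice had the same operation without the ligation.

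RUNX1, RUNX2 and RUNX3 bind DNA through a Runt domain, and their binding is strengthened by the non-DNA-binding subunit CBFβ, encoded by *Cbfb*. RUNX1 is best known from blood cell formation, RUNX2 from bone formation and RUNX3 from T cells, neurons and epithelium. SOX proteins bind and bend DNA through an HMG box. SOX9 drives cartilage matrix genes and takes part in heart valve formation and fibrosis, while SOX4 and SOX11 belong to one subgroup that acts in progenitor cells, including those of the developing outflow tract.

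The promoters of all 3 RUNX genes held the same short sequence, a pair of RUNX binding motifs, and it is printed because it is a feature of the members that their naming did not use. The RUNX motif was searched as ACCACA on either strand, and the paired form as ACCACANNACCACA, in which N is any base. RefSeq windows from 250 bases before to 50 bases after a transcript start were searched (GRCm38.p6, the build the authors aligned to as mm10). Of the 7 members, 6 had windows, 8 windows in all, and *Sox9* had none in the table used. The single motif occurred in 16.76% of 32851 windows. The paired motif occurred in 7 windows, of 7 genes among 27025, which is 0.02131% of windows; each paired match contains a pair of the single ones. The 7 genes were *Runx1*, *Runx2*, *Runx3*, *Gm12236*, *Gm15462*, *Gm16225* and *Olfr24*. In the 3 sequences, capitals mark the copies of the motif, and each is written 5′ to 3′ on the strand of its gene.
Runx1: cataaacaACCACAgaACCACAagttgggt
Runx2: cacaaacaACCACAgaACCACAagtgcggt
Runx3: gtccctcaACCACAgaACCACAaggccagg

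The *Runx1* stretch lies at chr16:92826025-92826054 on the minus strand, with the first motif base at position 29 counted from the transcript start as 1. In *Runx2* it lies at chr17:44814583-44814612 on the minus strand, with the first motif base at position 24, and in *Runx3* at chr4:135120503-135120532 on the plus strand, 134 bases before the start. A run of 18 bases, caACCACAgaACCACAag, was identical in all 3, and *Runx1* and *Runx2* shared 22 bases. The paired motif was not in the second windows of *Runx1* and *Runx3* or in the windows of *Cbfb*, *Sox4* and *Sox11*. The match describes letters only. The genes themselves span chr16:92601466-92826074 (*Runx1*), chr17:44495987-44814797 (*Runx2*), chr4:135120645-135177990 (*Runx3*), chr8:105170674-105217989 (*Cbfb*), chr13:28948919-28953699 (*Sox4*), chr11:112782210-112787757 (*Sox9*) and chr12:27334268-27342718 (*Sox11*).

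Depth ran from 20623769 to 71855101 counted reads a library, and the loci related to ribosomal RNA took 15.9 to 46.4% of them. Whole-gene *Pkm* ranged from 7779 to 12076 normalized counts in PKM2fl/fl hearts and from 10120.2 to 16113 in PKM2-/- hearts; it counts both isoforms together, so it does not check the deletion of exon 10. The labelled tissue was checked on cardiomyocyte markers: the 8 cardiomyocyte markers summed to 969017 normalized counts or more in every heart without MI. Values below are normalized counts, which are reads divided by the size factor of the library. Log2 fold changes were fitted with limma on log2(normalized count + 1) over all 16 libraries, and a gene was called at a Benjamini-Hochberg adjusted p under 0.05 over the 20576 genes tested together with a change of at least 2-fold. Of the 7 members, 6 were tested, since *Sox11* lay under the minimum mean of 10.

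The RUNX genes rose steeply after MI in both genotypes. *Runx1* had 866.6, 989.5 and 576.5 normalized counts in the 3 PKM2fl/fl sham hearts and 3792, 3027 and 4608 in the 3 PKM2fl/fl MI hearts. In PKM2-/- mice it had 847.2, 645.2 and 923.4 after sham surgery and 3227, 4459 and 4075 after MI. The groups did not overlap, and MI hearts were 4.74-fold higher in PKM2fl/fl (log2 2.25 ± 0.20 SE, adjusted p = 7.29e-07) and 4.87-fold higher in PKM2-/- (log2 2.29 ± 0.20, adjusted p = 4.19e-07). Unoperated hearts had 540.8 and 486.3 in PKM2fl/fl and 568.8 and 487.5 in PKM2-/-, below every sham heart of the same genotype. That step was not called: sham against baseline was 0.62 ± 0.22 (adjusted p = 0.361) in PKM2fl/fl and 0.60 ± 0.22 (adjusted p = 0.150) in PKM2-/- on the log2 scale.

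**Figure D1:**
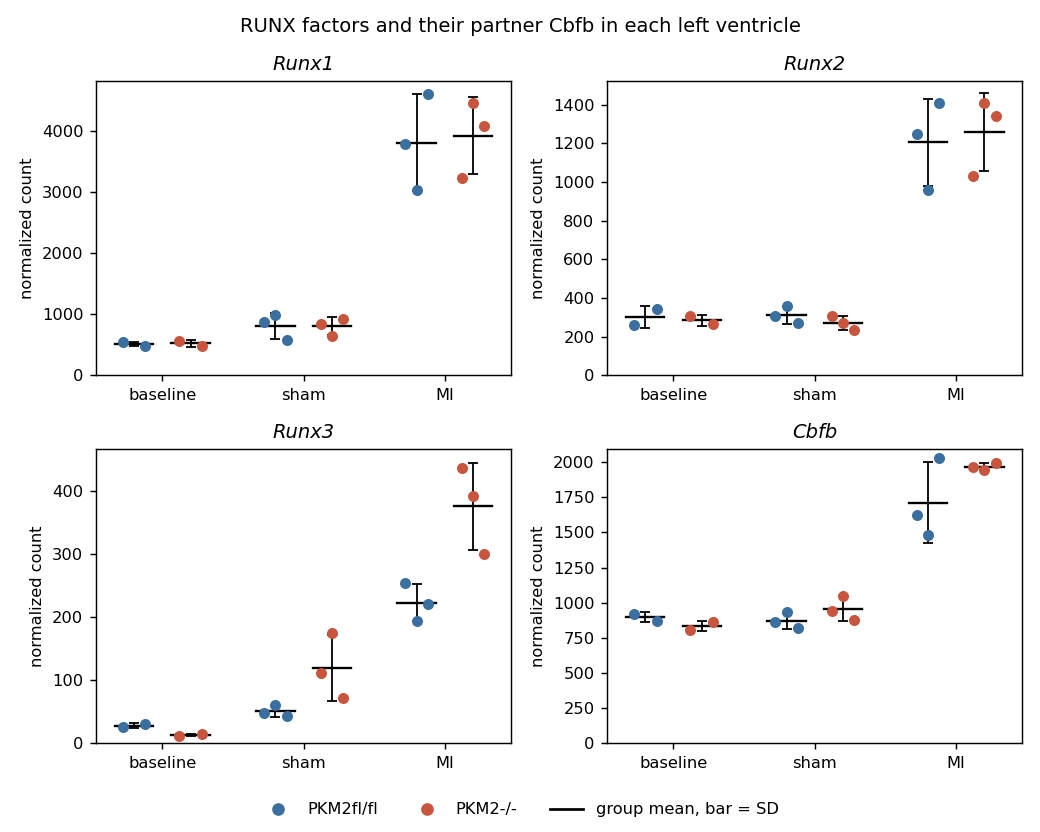
Normalized counts (vertical axes, linear and from 0) of *Runx1*, *Runx2*, *Runx3* and *Cbfb* at baseline, after sham surgery and after MI (horizontal axes); each point is 1 heart, blue for PKM2fl/fl and red for PKM2-/-, with lines for the group mean and bars for the SD. For all 4 genes the 6 MI hearts lie above the 10 others, and *Runx3* shows separated genotypes at each stage, with PKM2-/- lower at baseline and higher after surgery.

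*Runx2*, the osteoblast factor, had sham values like those at baseline and rose after MI. It had 305.5, 357.2 and 271.1 in PKM2fl/fl sham hearts against 1247, 960.2 and 1407 in MI hearts. The PKM2-/- values were 307.1, 269.0 and 237.3 after sham and 1030, 1407 and 1342 after MI. MI hearts were above all sham hearts, by 3.84-fold in PKM2fl/fl (log2 1.94 ± 0.17, adjusted p = 5.86e-07) and 4.62-fold in PKM2-/- (log2 2.21 ± 0.17, adjusted p = 1.38e-07). Baseline values of 263.0 and 342.3 in PKM2fl/fl and 305.4 and 265.7 in PKM2-/- overlapped those after sham surgery. The library kit does not mark strand. On the opposite strand the exons of *Runx2* overlap those of *Supt3* (463 to 1706 reads a library) and *Runx2os1* (2 to 72 reads). These reads are for the whole overlapping genes and not for the shared stretches. How reads in shared stretches were counted is not given in the sources used here, so their effect on the *Runx2* count is not known. The same holds for *Runx1* with *Gm26626* (3 to 251 reads), *Sox4* with *A330102I10Rik* (7 to 96 reads) and *Sox9* with *BC006965* (1 to 16 reads).

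*Runx3* was the scarcest of the 3, and its highest and lowest hearts differed by the largest ratio. The unoperated PKM2fl/fl hearts had 25.1 and 30.5, the sham hearts 48.2, 60.6 and 42.6, and the MI hearts 253.5, 194.0 and 221.3. The unoperated PKM2-/- hearts had 11.7 and 14.7, which were 10 and 8 reads, the sham hearts 110.9, 175.0 and 72.3, and the MI hearts 435.3, 391.2 and 300.1. All groups of a genotype were separate and in the same order. MI against sham was 4.37-fold in PKM2fl/fl (log2 2.13 ± 0.27, adjusted p = 1.56e-05) and 3.29-fold in PKM2-/- (log2 1.72 ± 0.27, adjusted p = 6.84e-05).

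*Cbfb*, the partner subunit, changed by about the limit of the call, and its change was not tested against those of the RUNX genes. It had 860.7, 935.1 and 822.1 in PKM2fl/fl sham hearts and 1622, 1484 and 2032 after MI, a change of 1.95-fold (log2 0.96 ± 0.11) with an adjusted p of 6.17e-06 that stayed under the 2-fold limit. In PKM2-/- hearts it had 942.1, 1051 and 879.2 after sham and 1968, 1944 and 1992 after MI, 2.06-fold higher (log2 1.04 ± 0.11, adjusted p = 1.84e-06). Both estimates lie at the 2-fold limit: without replicate 2 of the PKM2fl/fl MI or sham group the first became 1.06 or 1.01, past it, and without replicate 3 of the PKM2-/- sham group the second became 0.98, short of it. Baseline hearts had 920.7 and 870.4 in PKM2fl/fl and 808.9 and 861.3 in PKM2-/-.

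Of the 6 tested members, 4 were called higher after MI in PKM2fl/fl hearts (*Runx1*, *Runx2*, *Runx3* and *Sox9*), where 12.4% of all tested genes were called higher. In PKM2-/- hearts 6 of 6 were called higher, against 14.5% of all tested genes. All 6 had an adjusted p under 0.05 in both genotypes, all higher, a criterion that 24.8% and 28.7% of the tested genes met. The MI and sham groups did not overlap for 6 of 6 members in either genotype, which held in this direction for 30.0% of tested genes in PKM2fl/fl and 31.7% in PKM2-/-. For *Sox9* in PKM2-/- the separation was slight, with 68.09 in the lowest MI heart and 67.96 in the highest sham heart. The median log2 change of the members was 2.03 in PKM2fl/fl and 1.73 in PKM2-/-, beside -0.0025 and 0.010 over all tested genes. The members and the gene lists below were chosen with earlier results of these data known. Such shares and medians therefore describe them and do not test them as sets. For 4 members, *Runx1*, *Runx2*, *Runx3* and *Cbfb*, each of the 6 MI hearts was above each of the 10 hearts without MI. The share of all tested genes with that pattern was not counted, so it is a description only.

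**Figure D2:**
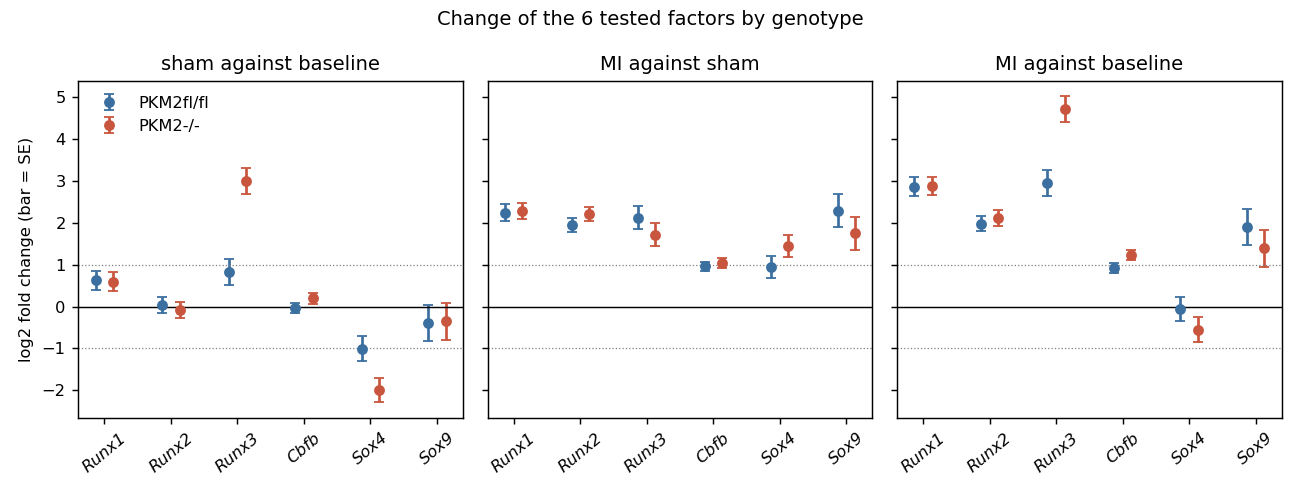
Log2 fold change (vertical axis, with bars for the SE and dotted lines at 2-fold) of the 6 tested members for sham against baseline, MI against sham and MI against baseline, in PKM2fl/fl (blue) and PKM2-/- (red). *Sox4* is farthest below 0 after sham surgery, at -1.01 and -2.00, with *Sox9* at -0.39 and -0.36, and the sham step of *Runx3* is 0.83 in PKM2fl/fl and 3.01 in PKM2-/-.

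The cellular make-up of the tissue moved with these changes. The 8 macrophage and monocyte markers summed to 5334 to 10630.3 normalized counts in PKM2fl/fl sham hearts and 22832 to 40242 after MI, and to 7298 to 8892 and 29961 to 35202 in PKM2-/- hearts; 8 of 8 were called higher in each genotype. The 8 fibroblast markers summed to 21295 to 39536 after sham and 136866 to 145733 after MI in PKM2fl/fl, and 23978 to 38720.0 and 122935 to 162657 in PKM2-/-, with 4 of the 7 tested called higher in each. The 8 cardiomyocyte markers fell, 7 of 8 called lower in PKM2fl/fl and 8 of 8 in PKM2-/-, to sums of 202552 to 471165 and 210244 to 288061. The 4 cell cycle markers were called higher in both genotypes. In a bulk sample more cells of a type and more RNA per cell cannot be told apart, and the part of these shifts in the members' values was not tested. The 7 T and NK cell markers stayed low: no single marker passed 18.6 normalized counts in any heart and none reached the minimum mean. Their summed level was 29.4 to 53.4 after sham and 40.2 to 55.7 after MI in PKM2fl/fl, and 20.9 to 36.6 and 34.9 to 52.7 in PKM2-/-; sham and MI hearts overlapped in both genotypes.

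Per kilobase of transcript, which allows levels of different genes to be compared, *Runx1* was the most abundant RUNX gene in 16 of 16 hearts. It made up 68.6% ± 3.4 (SD, n = 3) of the RUNX total in PKM2fl/fl sham hearts and 72.3% ± 1.4 after MI, against 64.6% ± 9.2 and 69.0% ± 2.3 in PKM2-/- hearts. *Runx2* was above *Runx3* in 15 of 16 hearts, and replicate 2 of the PKM2-/- sham group was the exception. The share of *Runx2* was highest in unoperated hearts, 32.9% ± 5.4 (n = 2) in PKM2fl/fl and 32.0% in both PKM2-/- hearts, and was 20.8% ± 0.40 and 20.1% ± 0.93 after MI. The share of *Runx3* was 5.34% ± 0.62 at baseline, 6.95% ± 0.68 after sham and 6.89% ± 1.1 after MI in PKM2fl/fl, and 2.64% ± 0.68, 15.6% ± 7.6 and 10.8% ± 3.1 in PKM2-/-.

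**Figure D3:**
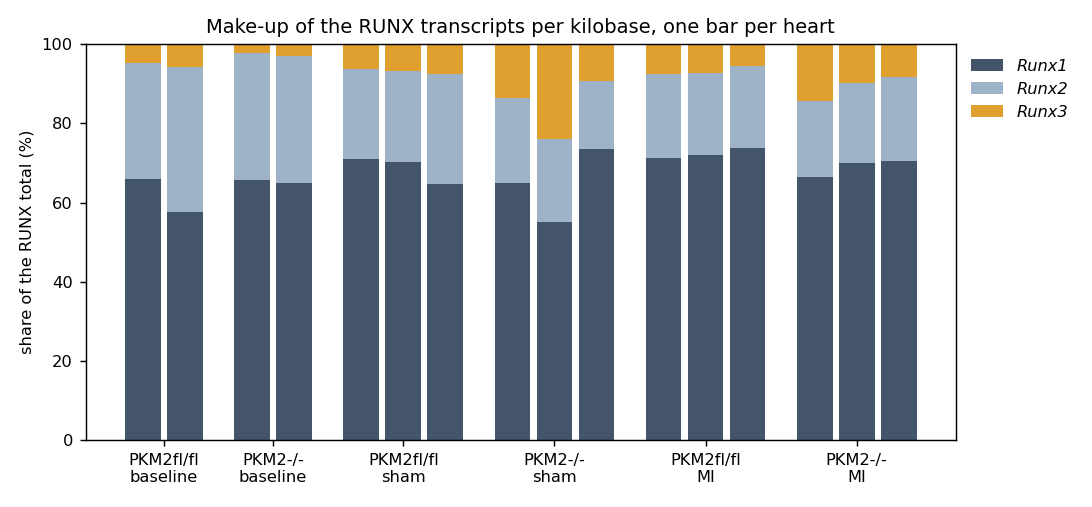
Share (vertical axis, %) of *Runx1*, *Runx2* and *Runx3* in their summed normalized counts per kilobase, with 1 bar for each of the 16 hearts in their groups (horizontal axis). *Runx1* fills most of every bar, from 55.2 to 73.9%, and *Runx3* reaches 23.9% in 1 PKM2-/- sham heart.

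The RUNX total per kilobase rose relative to *Cbfb*. In PKM2fl/fl hearts the total was 142 ± 3.2 at baseline, 200.3 ± 45 after sham and 897 ± 173 after MI, and in PKM2-/- hearts 138 ± 14, 212 ± 12 and 966 ± 129. The ratio of *Cbfb* to the total was 2.17 ± 0.13, 1.54 ± 0.28 and 0.660 ± 0.049 in PKM2fl/fl and 2.10 ± 0.30, 1.56 ± 0.22 and 0.709 ± 0.10 in PKM2-/-. Every heart without MI had more *Cbfb* than RUNX transcripts per kilobase, and every MI heart had fewer. The ratio is of transcripts, and the lengths are those of the GENCODE canonical transcripts, since the isoforms behind the counts were not used here.

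Over all 7 members the order of levels per kilobase in PKM2fl/fl sham hearts was *Cbfb* (300 ± 20), *Runx1* (138 ± 36), *Sox4* (80.9 ± 34), *Runx2* (48.2 ± 6.7), *Runx3* (13.8 ± 2.5), *Sox9* (13.3 ± 2.9) and *Sox11* (0.373 ± 0.19). The ranges of *Runx1* and *Sox4* overlapped, as did those of *Runx3* and *Sox9*. After MI *Runx1* (650 ± 135) stood beside *Cbfb* (589 ± 98), *Runx2* (186 ± 35) beside *Sox4* (149 ± 23), and *Sox9* (65.0 ± 2.1) beside *Runx3* (60.8 ± 8.1), each of these pairs with overlapping ranges, and *Sox11* (1.34 ± 0.40) was last again.

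Among the SOX genes, *Sox9*, the cartilage and fibrosis factor, was higher after MI except in 1 heart. It had 43.5, 67.7 and 54.9 in PKM2fl/fl sham hearts and 281.3, 265.8 and 267.0 in MI hearts, 4.91-fold higher (log2 2.29 ± 0.39, adjusted p = 1.87e-04). In PKM2-/- hearts it had 45.0, 31.3 and 68.0 after sham and 68.1, 206.4 and 269.8 after MI. Replicate 1 of the PKM2-/- MI group therefore lay at the upper end of the sham hearts, while the other two were near the PKM2fl/fl MI hearts. The PKM2-/- change was 3.36-fold (log2 1.75 ± 0.39, adjusted p = 0.00135), and 2.34 on the log2 scale without that replicate. In the same heart the macrophage markers summed to 29961 and the cell cycle markers to 7459. Its fibroblast sum of 122935 and its sum of 141.9 for the 3 atrial markers were the lowest of the 6 MI hearts, and its sum of 18202 for the 3 erythroid markers was above the 5302 to 9169 of the other MI hearts. PKM2fl/fl MI replicate 1, with 281.3 for *Sox9*, had a similar atrial sum of 145.3. The part of these markers in its *Sox9* value was not tested. *Sox9* at baseline, 68.3 and 75.6 in PKM2fl/fl and 65.3 and 53.1 in PKM2-/-, was near the sham values, with changes of -0.39 (adjusted p = 0.920) and -0.36 (adjusted p = 0.746).

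*Sox4* had another course: it was lower in sham hearts than in unoperated ones, a fall that was called in PKM2-/- mice, and PKM2fl/fl MI hearts lay in the baseline range again. Unoperated PKM2fl/fl hearts had 934.1 and 582.5, sham hearts 265.6, 323.3 and 574.5, and MI hearts 609.0, 832.6 and 698.7. Unoperated PKM2-/- hearts had 1211 and 850.3, sham hearts 223.5, 320.0 and 225.5, and MI hearts 617.7, 657.3 and 818.0. Sham hearts were below all unoperated hearts and all MI hearts of their genotype; both comparisons use the same sham hearts, so they are not independent. In PKM2-/- mice the fall from baseline to sham was -2.00 ± 0.29 on the log2 scale (adjusted p = 0.00202) and was called, as were 0.608% of tested genes in that direction.

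In PKM2fl/fl mice the corresponding *Sox4* change was -1.01 ± 0.29 with an adjusted p of 0.195, which was not called. One library decided it: without sham replicate 3, at 574.5, the change was -1.33 with an adjusted p of 0.0190. From sham to MI *Sox4* was 1.93-fold higher in PKM2fl/fl (log2 0.95 ± 0.26, adjusted p = 0.00672), under the 2-fold limit, and 2.73-fold higher in PKM2-/- (log2 1.45 ± 0.26, adjusted p = 2.11e-04). Without that same sham replicate, or without MI replicate 1, the PKM2fl/fl estimate was 1.27 or 1.05 and passed the limit. Set against unoperated hearts, a comparison added after these values were seen, *Sox4* after MI differed by -0.06 ± 0.29 (adjusted p = 0.878) in PKM2fl/fl and -0.55 ± 0.29 (adjusted p = 0.118) in PKM2-/-. These values do not show that the levels were equal, and the PKM2-/- MI hearts all lay below the unoperated ones.

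**Figure D4:**
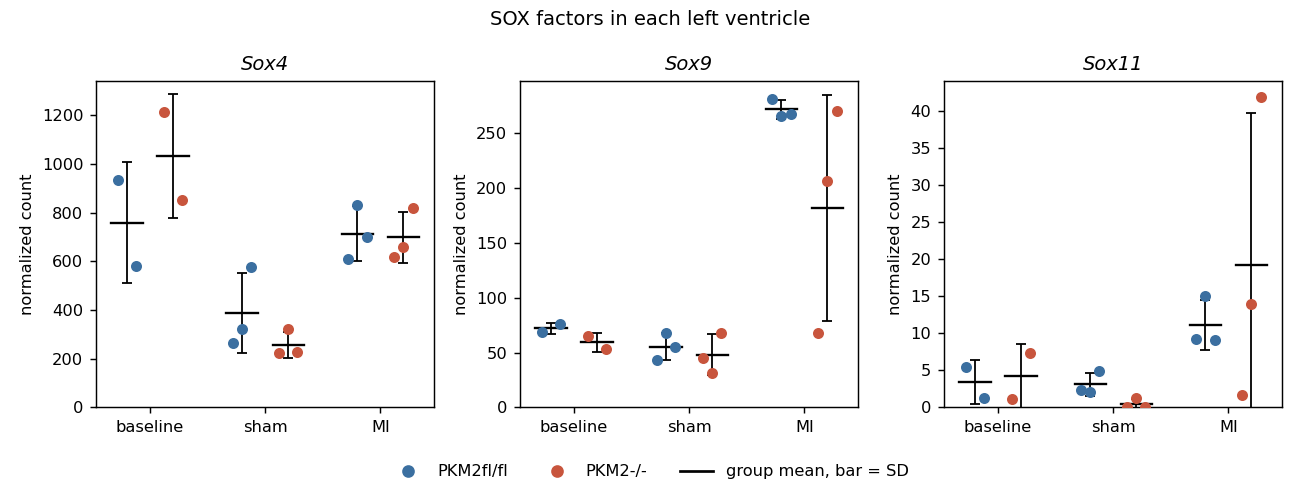
Normalized counts (vertical axes, linear and from 0) of *Sox4*, *Sox9* and *Sox11* at baseline, after sham surgery and after MI (horizontal axes); each point is 1 heart, blue for PKM2fl/fl and red for PKM2-/-, with lines for the group mean and bars for the SD, which are clipped at 0 for *Sox11*. *Sox4* is lowest in the sham groups, and 1 PKM2-/- MI heart lies at the sham level for *Sox9*, at 68.1, and for *Sox11*, at 1.6.

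Against unoperated hearts the other tested members kept the direction they had against sham. *Runx1* was higher after MI by 2.87 in PKM2fl/fl and 2.88 in PKM2-/- on the log2 scale, *Runx2* by 1.98 and 2.13, and *Runx3* by 2.96 and 4.72. *Sox9* was higher by 1.90 (adjusted p = 0.00213) and 1.39 (adjusted p = 0.0130), and *Cbfb* by 0.92 (adjusted p = 2.57e-05, under 2-fold) and 1.24. In all, 4 members were called in PKM2fl/fl, where 13.8% of tested genes were called higher, and 5 in PKM2-/-, where 16.7% were. The *Sox9* call in PKM2-/- was lost when baseline replicate 2 (1.25, adjusted p = 0.0873), MI replicate 2 (1.19, adjusted p = 0.0506) or MI replicate 3 (1.00, adjusted p = 0.0630) was left out.

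*Sox11*, the relative of *Sox4*, was near the limit of detection. It had 5.5 and 1.3 normalized counts in unoperated PKM2fl/fl hearts, 2.4, 2.1 and 4.9 after sham and 9.3, 15.0 and 9.1 after MI, which is 16 reads in the sham and 30 reads in the MI libraries. In PKM2-/- hearts it had 1.2 and 7.3 at baseline, 0, 1.3 and 0 after sham and 1.6, 14.0 and 41.8 after MI, or 1 read against 53. A count of 0 allows up to 3 reads, which is 4.82 and 3.24 normalized counts in the sham hearts concerned. Relative to depth, the ratio of MI to sham reads was 3.31 in PKM2fl/fl (exact 95% interval 1.75 to 6.50) and 35.0 in PKM2-/- (6.02 to 1409.7); the intervals cover counting error only and not the spread between mice. The PKM2-/- MI heart with 1.6, or 2 reads, was replicate 1, the heart that was low for *Sox9*.

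Genotype was compared at each stage to ask whether loss of PKM2 alters these genes. None of the 6 tested members was called at baseline, after sham surgery or after MI, and few genes were: 0.00972%, 0.00486% and 0.413% of those tested. At an unadjusted p under 0.05 there was 1 of the 6 members at each stage, *Runx3* each time, beside 3.64%, 9.95% and 17.0% of all tested genes, so after MI the share of members was that of all genes. Other members ranged from -0.79 (*Sox9* after MI) to 0.46 (*Sox4* at baseline) in PKM2-/- relative to PKM2fl/fl on the log2 scale, with adjusted p of 0.320 or more.

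*Runx3* in PKM2-/- hearts was lower than in PKM2fl/fl hearts before surgery and higher after it. The differences were -1.03 ± 0.33 at baseline (adjusted p = 1), 1.15 ± 0.27 after sham (adjusted p = 0.135) and 0.74 ± 0.27 after MI (adjusted p = 0.180), and the genotypes did not overlap at any stage. Groups without overlap in the same direction were seen for 17.2%, 8.27% and 10.7% of tested genes. The sham difference was called without PKM2-/- sham replicate 3 (1.46, adjusted p = 0.0277) and by DESeq2 on the recovered reads (1.25, adjusted p = 0.00322). These settings called 0.243% and 0.554% of tested genes, beside 0.00486% in the analysis reported. With edgeR and voom on the recovered reads 0.00486% of tested genes were called, and *Runx3* was not. The step from baseline to sham was 8.03-fold in PKM2-/- (log2 3.01 ± 0.30, adjusted p = 1.39e-04), where 2.06% of tested genes were called higher, and 1.78-fold in PKM2fl/fl (log2 0.83 ± 0.30, adjusted p = 0.371), where 0.17% were called in either direction and none of the members was.

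The difference between those steps, a test added after the values were seen, was 2.18 ± 0.43 on the log2 scale, with an unadjusted p of 1.35e-04 and an adjusted p of 0.294. DESeq2 gave 2.36 and an adjusted p of 0.0246. No gene passed that interaction in limma (0.0% of those tested), 1294 had an unadjusted p under 0.05, DESeq2 called 25 and edgeR 0. Loci related to ribosomal RNA took 40.1 to 44.1% of reads in unoperated PKM2-/- hearts against 17.3 to 22.2% in PKM2fl/fl, and 28.9 to 46.4% against 15.9 to 27.9% after sham; their part in the *Runx3* values was not tested. After sham the macrophage markers summed to 7298 to 8892 in PKM2-/- and 5334 to 10630.3 in PKM2fl/fl hearts, which overlap.

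The 5 neutrophil markers were also higher after sham surgery than at baseline. Their sum went from 132 to 167 at baseline to 974 to 1254 after sham in PKM2-/- hearts, where 5 of 5 were called higher with a median log2 change of 3.41. In PKM2fl/fl hearts it went from 82.4 to 187 to 224 to 1312, with a median of 2.82 and 0 of 5 called. Sham replicates 1 to 3 had sums of 1272, 1312 and 224 in PKM2fl/fl, with *Runx3* at 48.2, 60.6 and 42.6. In PKM2-/- the sums were 1109, 974 and 1254, with *Runx3* at 110.9, 175.0 and 72.3. The order of the hearts was thus the same for both in PKM2fl/fl and reversed in PKM2-/-. The sham sums of the genotypes overlapped. After sham the median genotype difference of the markers was 0.77 on the log2 scale, beside 1.15 for *Runx3*. The 5 markers ranged from 0.38 to 1.02 there, and 0 of 5 were called. At baseline the median genotype difference of the markers was 0.46 on the log2 scale, beside -1.03 for *Runx3*. After MI the sums were 3527 to 4521 in PKM2-/- and 1232 to 2138 in PKM2fl/fl hearts, which did not overlap; the median genotype difference was 1.60 on the log2 scale, and 0 of 5 markers were called. The part of these markers in the *Runx3* values was not tested.

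The response to MI was not shown to differ between genotypes for any member. The interaction estimates ran from -0.55 (*Sox9*, adjusted p = 0.816) to 0.51 (*Sox4*, adjusted p = 0.741), and 0 of 6 members were called, as were 0.0% of the tested genes in limma, where 1703 had an unadjusted p under 0.05. DESeq2 called 51 genes and edgeR 0. The *Sox9* estimate rested on PKM2-/- MI replicate 1: without it the interaction was 0.045, and the genotype difference after MI went from -0.79 to -0.20. *Runx1*, *Runx2* and *Cbfb* had interactions of 0.04 ± 0.28, 0.27 ± 0.24 and 0.08 ± 0.15.

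Other SOX genes were not called higher in MI than in sham hearts. Of 17 listed, 9 were tested, and 0 were called higher against sham in either genotype. In PKM2fl/fl 3 were called lower, where 11.1% of all tested genes were, and in PKM2-/- 2 were, against 14.3%; the median change was -0.18 and -0.37. *Sox5*, a relative of *Sox6* named here after its values were seen, was higher against sham but under 2-fold (log2 0.52, adjusted p = 0.0148 in PKM2fl/fl and log2 0.83, adjusted p = 4.79e-04 in PKM2-/-). Against unoperated hearts it was called higher in PKM2-/- (log2 1.04, adjusted p = 1.70e-04) and was 0.79 (adjusted p = 0.00215) in PKM2fl/fl. *Sox6*, a muscle fiber and cartilage regulator, had 6624 ± 619 normalized counts in PKM2fl/fl sham and 2551 ± 760 in MI hearts (log2 -1.41, adjusted p = 1.05e-05), and 5575 ± 864 and 1339 ± 164 in PKM2-/- (log2 -2.05, adjusted p = 2.86e-07). *Sox10*, the glial factor, fell from 35.6 ± 4.3 to 14.2 ± 7.1 (log2 -1.37, adjusted p = 0.0178) and from 30.0 ± 3.6 to 15.2 ± 8.2 (log2 -1.11, adjusted p = 0.0445). *Sox30*, a germ cell factor, was called in PKM2fl/fl (-1.62, adjusted p = 0.0381) and had -1.10 with an adjusted p of 0.141 in PKM2-/-.

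**Figure D5:**
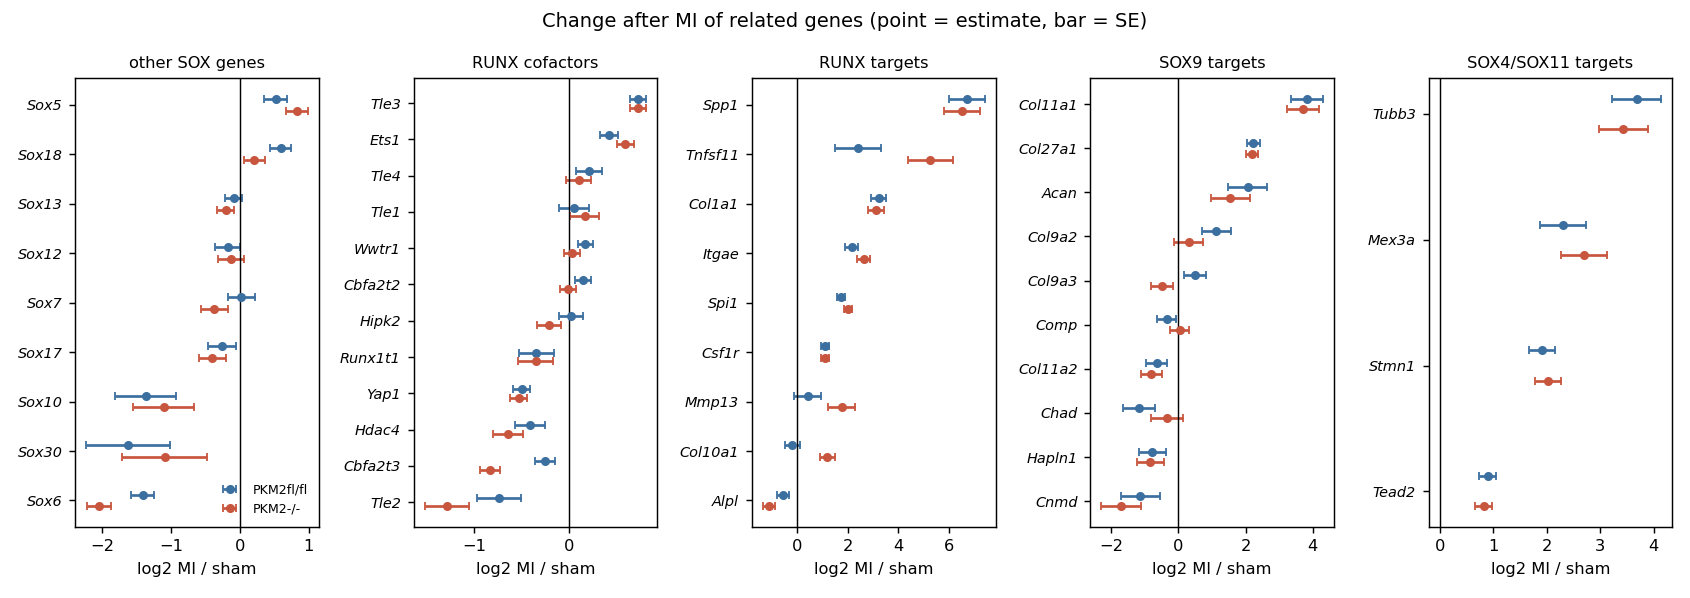
Log2 fold change of MI against sham (horizontal axes, with bars for the SE) for the tested genes of 5 lists: other SOX genes, RUNX cofactors and textbook targets of RUNX, of SOX9 and of SOX4 and SOX11, in PKM2fl/fl (blue) and PKM2-/- (red). *Sox6* lies at -1.41 and -2.05, the cofactors spread around 0, and *Spp1* lies at 6.71 and 6.52.

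Few cofactors of RUNX proteins were called in MI against sham hearts. All 12 were tested, and 0 were called in PKM2fl/fl and 1 lower in PKM2-/-, with medians of 0.03 and -0.12. Among all tested genes 12.4% and 14.5% were called higher and 11.1% and 14.3% lower. The one called was *Tle2*, a Groucho-family corepressor, at -1.29 (adjusted p = 2.11e-04) in PKM2-/- and -0.74 (adjusted p = 0.0144, under 2-fold) in PKM2fl/fl. *Tle3*, named here after its values were seen, was higher but under 2-fold (0.73, adjusted p = 6.88e-06 in PKM2fl/fl and 0.72, adjusted p = 4.48e-06 in PKM2-/-). Against unoperated hearts *Tle3* was called higher (1.03 in PKM2fl/fl and 1.53 in PKM2-/-) and *Tle2* lower (-1.10 and -1.64). In that comparison 13.8% and 16.7% of all tested genes were called higher and 11.6% and 15.9% lower.

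Textbook RUNX targets were mostly higher in MI than in sham hearts where they could be tested. Of 16, 9 were tested, and 6 were called higher and 0 lower in PKM2fl/fl, 8 higher and 1 lower in PKM2-/-, with medians of 1.72 and 1.99. Among all tested genes 12.4% and 14.5% were called higher and 11.1% and 14.3% lower. Against unoperated hearts 6 of 9 were called higher and 0 lower in each genotype. The shares of all tested genes there were 13.8% and 16.7% higher and 11.6% and 15.9% lower. In PKM2-/- *Mmp13* (0.96, adjusted p = 0.189) and *Col10a1* (-0.91, adjusted p = 0.0288) were called higher against sham but not against unoperated hearts. *Spp1*, the secreted phosphoprotein osteopontin of bone and of macrophages, rose from 173 ± 140 to 13779 ± 3403 in PKM2fl/fl (log2 6.71, adjusted p = 3.06e-06) and from 252 ± 257 to 16852 ± 3385 in PKM2-/- (log2 6.52, adjusted p = 2.43e-06). *Tnfsf11*, the osteoclast factor RANKL, went from 5.09 ± 4.4 to 22.4 ± 10 (log2 2.40, adjusted p = 0.0359) and from 1.74 ± 3.0 to 70.5 ± 11 (log2 5.27, adjusted p = 1.32e-04), from levels of few reads.

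*Col1a1*, which is also one of the fibroblast markers, rose by 3.22 and 3.11 in PKM2fl/fl and PKM2-/-, and *Itgae*, the CD103 integrin chain, by 2.14 and 2.63 on the log2 scale. *Spi1* and *Csf1r*, myeloid genes named here after their values were seen, rose by 1.72 and 1.99 and by 1.10 and 1.08, and *Csf1r* is also a macrophage marker. The target called lower in PKM2-/- was *Alpl*, the bone alkaline phosphatase, at -1.13 (adjusted p = 7.56e-04), with -0.57 (adjusted p = 0.0543) in PKM2fl/fl. The 7 untested targets were the bone matrix genes *Bglap*, *Bglap2* and *Ibsp*, the osteoblast factor *Sp7*, and *Mpo*, *Csf2* and *Cd8a*, all under the minimum mean.

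Targets of SOX9 were split. Of 14, 10 were tested, with 4 called higher and 0 lower in PKM2fl/fl and 3 higher and 1 lower in PKM2-/-, and medians of 0.07 and -0.15. Among all tested genes 12.4% and 14.5% were called higher and 11.1% and 14.3% lower. Against unoperated hearts 2 of 10 were called higher in each genotype, with 0 lower in PKM2fl/fl and 1 lower in PKM2-/-. The shares of all tested genes there were 13.8% and 16.7% higher and 11.6% and 15.9% lower. The fibrillar collagen gene *Col11a1* rose from 26.9 ± 9.4 to 390 ± 118 in PKM2fl/fl (log2 3.83, adjusted p = 1.28e-05) and from 28.7 ± 20 to 355 ± 175 in PKM2-/- (log2 3.69, adjusted p = 1.10e-05). *Col27a1*, another fibrillar collagen of cartilage, rose by 2.23 and 2.19, and the proteoglycan gene *Acan* by 2.06 (adjusted p = 0.00871) and 1.55 (adjusted p = 0.0351). *Cnmd*, which encodes chondromodulin, was lower by -1.70 (adjusted p = 0.0211) in PKM2-/- and -1.13 (adjusted p = 0.122) in PKM2fl/fl. *Col2a1*, the main cartilage collagen gene, stayed at or below 8.66 normalized counts in every heart and was not tested.

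Of 5 textbook targets of SOX4 and SOX11, 4 were tested and 3 were called higher in MI than in sham hearts in each genotype, with medians of 2.10 and 2.36. Among all tested genes 12.4% and 14.5% were called higher. These were *Tubb3*, a neuronal tubulin (3.68 and 3.43), *Mex3a*, an RNA-binding protein (2.30 and 2.69), and *Stmn1*, a microtubule regulator of dividing cells (1.91 and 2.03). Between baseline and sham, where *Sox4* was lower, 0 of these 4 were called in either genotype, and their medians were 0.30 and 0.41. Between baseline and MI, 4 of 4 were called higher in each genotype, with medians of 2.03 and 2.66. There *Sox4* changed by -0.06 and -0.55, and 13.8% and 16.7% of all tested genes were called higher.

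The genes whose pattern over the 16 hearts was most like each member are given as a description; the libraries share the rise after MI, so high correlations are common. *Runx1* went with *Arl6ip1* (r = 0.994), *Eef1a1* (0.994), a translation elongation factor, and *Ikzf1* (0.993), the lymphoid and myeloid factor Ikaros. *Runx2* went with *Kif21b* (0.991), *Tns3* (0.989) and *Serpinb1a* (0.987), and *Runx3* with *Nectin1* (0.974), *Sh3pxd2b* (0.972) and *Rassf2* (0.972). *Cbfb* went with *Cbl* (0.993), *Gm26827* (0.991) and *Nsd2* (0.991).

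The best matches of *Sox9* were *Acvr1* (0.947), *Phldb2* (0.945) and *Cachd1* (0.940), and those of *Sox4* were *Nav3* (0.915), *Pcdh17* (0.899) and *Mgmt* (0.894), the weakest set of the 6 tested members. Among the members, *Runx1* correlated at 0.967 with *Runx2* and 0.957 with *Cbfb* over the 16 hearts. *Sox4* had 0.196 with *Runx1* and -0.13 with *Runx3*, and *Runx3* had 0.560 with *Sox9*.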

How the data were processed

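RNA from left ventricles was depleted of rRNA, made into libraries with the NEBNext Ultra II RNA kit and paired-end sequenced. Per the labels and the study's methods, the authors used PRINSEQ for trimming, HISAT2 for alignment (mm10), featureCounts for reads per gene and DESeq2 for scaling; versions are not given in the sources used here. The deposited signal values are reads divided by a size factor: each library's values were whole multiples of the value of 1 read (100.0000% of values above 0, tolerance 0.01), so reads were recovered. The authors' fold change and p-value columns were not used.

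Each library came from its own mouse; replicate numbers did not pair them (36 same-numbered pairs, median r -0.027, 1 over 0.1; 70 other pairs, median 0.013). Tests used limma 3.58.1 (R 4.3.3; genes whose mean reached 10; trend, log2(value + 1), 6 group means, Benjamini-Hochberg). Scripts were tested on simulated data. Alternatives were TMM (edgeR 4.0.16) and total-read scaling, size factors without rRNA-related loci, DESeq2 1.42.0, edgeR and voom on recovered reads, a pseudocount of 0.1, no filter or a mean of 50, only the groups compared, a replicate block, no fold limit, and each library left out. MI against baseline and the genotype by sham interaction were added after values were seen. The members and lists were chosen with earlier results of these data known. Named genes were all members, up to 4 called genes a list with the largest change, and the 3 most correlated genes a member. Gene spans are RefSeq (GRCm38.p6) and transcript lengths GENCODE M39.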

Additional observations from a re-analysis of the deposited data

How the results depend on the processing

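The number of members called in each comparison stayed within 1.5 times under all alternatives run except these. After sham surgery, PKM2-/- against PKM2fl/fl had 0 members called, 1 (*Runx3*) by DESeq2 on recovered reads, and 0 to 1 with each library left out (1 without PKM2-/- sham replicate 3). Sham against baseline in PKM2fl/fl had 0, and 0 to 1 with each library left out (1, *Sox4*, without PKM2fl/fl sham replicate 3). The genotype by sham interaction had 0, and 1 (*Runx3*) by DESeq2. With each library left out, values printed in the report changed sign in the genotype by infarct interaction for *Sox9* (-0.94 to 0.045, the latter without PKM2-/- MI replicate 1), *Runx1* (-0.12 to 0.27) and *Cbfb* (-0.015 to 0.21), and for *Sox4* in MI against baseline in PKM2fl/fl (-0.40 to 0.28, the latter without baseline replicate 1). With total-read scaling 12 of the 66 member values over all comparisons changed sign, all of them at 0.55 or less in size in the analysis reported; they include *Sox9* (0.13) and *Runx3* (0.27) in the genotype by infarct interaction, *Sox4* in MI against baseline in PKM2-/- (0.18), and *Sox4* (-0.13) and *Runx1* (-0.55) for genotype at baseline. That scaling shifted the median of all genes in these comparisons by 0.68, 0.72 and -0.59 on the log2 scale, and relative to the shift 0 of the 66 values changed sign. With the replicate block the counts of members called were as before, for example 4 and 6 for MI against sham, and it changed no call on a member. With no filter on low values *Sox11* was also tested and was called in PKM2-/- (3.17, adjusted p = 0.0102) and not in PKM2fl/fl (1.60, adjusted p = 0.228). *Sox9* in MI against baseline in PKM2-/- lost its call with voom (1.29, adjusted p = 0.0683). The groups of 2 and 3 hearts limit what small genotype differences can be seen, and *Sox11* and baseline *Runx3* are also limited by read number. The cause of these changes was not tested.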

Other observations

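A pair of listed genes outside the members differed between genotypes after MI at an adjusted p under 0.05 but by less than 2-fold; they were singled out after their values were seen, and 0.967% of all tested genes met that criterion in that comparison. *Tle3*, a Groucho-family corepressor that binds RUNX proteins, had 1287 ± 88 normalized counts (SD, n = 3) in PKM2fl/fl and 1736 ± 34 in PKM2-/- MI hearts (log2 0.43 ± 0.08 SE, adjusted p = 0.0322). It was also higher after sham than at baseline in PKM2-/- hearts (0.81, adjusted p = 4.63e-04), beside 0.30 (adjusted p = 0.242) in PKM2fl/fl. *Sox6* had 2551 ± 760 in PKM2fl/fl and 1339 ± 164 in PKM2-/- MI hearts (-0.90 ± 0.17, adjusted p = 0.0319). In the same hearts the cardiomyocyte markers summed to 471165, 455287 and 202552 in PKM2fl/fl and 288061, 215141 and 210244 in PKM2-/-. The median genotype difference of these 8 markers was -0.52 on the log2 scale. They ranged from -0.79 to -0.05, and 0 of 8 were called. The part of these markers in the *Sox6* values was not tested.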
